A study of Rattus norvegicus with 20 samples.

Results

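Vocal folds taken 8 weeks after injury were set against uninjured vocal folds, with 5 rats in each group and 1 array for each rat. The samples were chosen by their labels alone, as the 10 of 20 arrays labelled control or 8 weeks after vocal fold injury. Controls were untreated male Sprague-Dawley rats, and in the 8-week animals the lamina propria had been separated from the thyroarytenoid muscle and removed. Per the methods the injury was made on 1 or both sides, and they give a single age range for all groups, without saying whether it held at injury or at killing. The other 10 arrays, from animals at 1 and 4 weeks, share the estimate of spread and serve for the tests between times. All 15049 probe sets with 1 gene name were tested, for 15037 genes. Values are the deposited log2 RMA signals, on which a difference of 1 is a doubling. Changes written as risen or fallen by a number are log2 fold changes of 8 weeks against control.

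The lamina propria is the pliable layer of the vocal fold, whose collagen, elastin and hyaluronan let the cover vibrate over the muscle, and scarring stiffens it. The larynx around it carries squamous and ciliated epithelium and seromucous glands that wet the fold. Chronically inflamed mucosa can gather B cells into follicles, which stromal cells attract with the chemokine made by Cxcl13.

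The tissue label was checked against its defining genes. The 15 squamous epithelium genes averaged 6.64 to 7.32 in the controls and 6.85 to 7.58 at 8 weeks, with the keratins Krt15 and Krt13 at 11.04 and 9.49 in the controls. The 21 sarcomere genes averaged 7.16 to 9.31 in the controls and 6.46 to 8.86 at 8 weeks, so epithelium and muscle were both present. Prl, a pituitary hormone gene, averaged 11.44 in the same controls and 3.49 at 8 weeks. Array medians lay between 4.87 and 4.94 in 4 controls and between 4.87 and 4.92 at 8 weeks, while control replicate 3 stood apart at 4.58. The 18 hybridization control probe sets, added to every array at the same amount, averaged 9.25 ± 0.30 (SD, n = 5) in the controls and 10.07 ± 0.18 (SD, n = 5) at 8 weeks, with no overlap (two-sided exact permutation test, p = 0.00794, the smallest that 5 against 5 allows). At 1 and 4 weeks these probe sets averaged 10.19 and 10.09, also above every control animal. The 24 poly-A control probe sets averaged 5.91 in the control animals and 6.61 at 8 weeks (two-sided exact permutation test, p = 0.0159). The 23 background probe sets averaged 2.70 in the control animals and 3.26 at 8 weeks, a difference of 0.56, and 3.39 and 3.30 at 1 and 4 weeks. Genes near these background levels have no well-measured signal, and the part of the background difference in their changes was not tested. No source used here gives the order in which arrays were run, so run and group cannot be told apart. The files give no detection calls, and with 5 arrays a group the precision is limited by their number.

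Between 8 weeks and control, 1748 of 15049 probe sets (11.6%) passed limma's test at an adjusted p of 0.05. Of these, 1048 (6.96%) were higher and 700 (4.65%) lower at 8 weeks, and the median log2 fold change over all probe sets was 0.04. Centring each array on its median gave 959 higher and 1191 lower, and leaving out control replicate 3 gave 848 and 1508. Once the signal of these hybridization controls entered the fit as a covariate, 9 probe sets passed, 1 higher and 8 lower. Groups did not overlap for 893 probe sets that were higher (5.93%) and 290 that were lower (1.93%). Changes of at least 1 log2 unit were found in 89 called probe sets that rose and 160 that fell. Of 87 genes named in the text that passed, 2 also did so with the covariate, and 57 did so in each of 10 fits that left out 1 array, and the arrays whose absence ended the call, each left out singly, are given for the others.

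The list with the highest median was that of B cells, and the list with the lowest was that of the anterior pituitary. Medians of the 38 lists ran from -0.84 to 0.83, against 0.04 over all probe sets. Counts of called members below stand beside 6.96% of all probe sets called higher and 4.65% called lower. No member of the lists for T and NK cells, mast cells, squamous epithelium, ciliated epithelium, muscle regeneration, the respiratory chain, glucocorticoid-responsive genes, heat shock and thyroid passed limma's test. At an unadjusted p of 0.05 these lists held 6 of 26, 1 of 10, 2 of 15, 0 of 13, 2 of 13, 2 of 24, 4 of 17, 2 of 15 and 1 of 14 members. Over all probe sets 4021 of 15049 had an unadjusted p under 0.05, a larger share than in any of these lists.

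**Figure D1:**
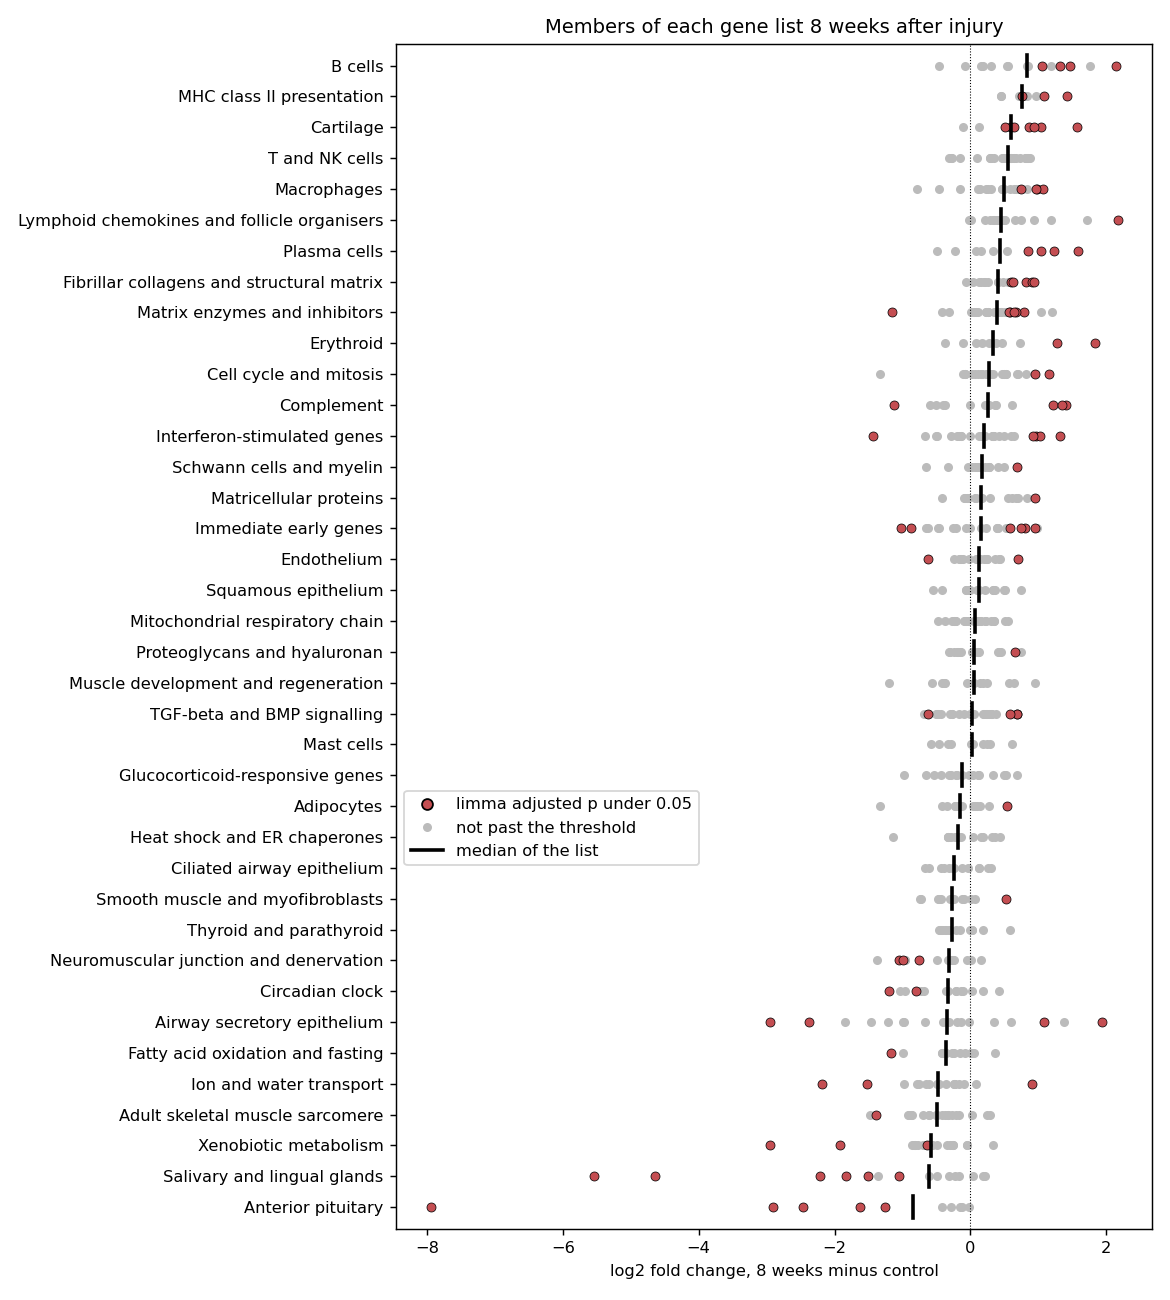
Log2 fold change (8 weeks minus control, horizontal axis) of every measured member of 38 gene lists (rows), with called members in red, the others in grey and the list median as a black bar. The red points of the gland and pituitary lists lie to the left, reaching -7.95 for Prl, and those of the B cell, macrophage and cartilage lists lie to the right, up to 2.17 for Cxcl13 in the lymphoid chemokine list.

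Cxcl13, the chemokine that draws B cells into follicles, had the largest rise among called probe sets whose groups did not overlap, and 4 of 15 measured B cell genes also rose. Its log2 signal was 5.84, 6.98, 6.57, 7.41 and 5.73 in the controls and 7.46, 9.98, 8.26, 9.68 and 8.03 at 8 weeks, in replicate order. The lowest 8-week animal, at 7.46, lay just above the highest control, at 7.41, and replicates 2 and 4 were the highest. Cxcl13 rose 4.51-fold (log2 fold change 2.17, standard error 0.50, 95% confidence interval 1.13 to 3.21, adjusted p = 0.00812). It was also higher at 8 weeks than at 1 week (log2 difference 2.93, adjusted p = 0.0112), where its mean was 5.75 ± 0.58 (SD, n = 5). At 4 weeks it averaged 7.74 ± 1.16 (SD, n = 5), and the difference of 8 from 4 weeks was 0.94 with a 95% confidence interval of -0.10 to 1.98.

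The 250 bases before the RefSeq start of Cxcl13 (chr14:13917921-13918170, minus strand, GRCr8) are shown because this gene leads the rise, with the only TATAAA match in capitals, at bases -33 to -28 from the start.
Cxcl13: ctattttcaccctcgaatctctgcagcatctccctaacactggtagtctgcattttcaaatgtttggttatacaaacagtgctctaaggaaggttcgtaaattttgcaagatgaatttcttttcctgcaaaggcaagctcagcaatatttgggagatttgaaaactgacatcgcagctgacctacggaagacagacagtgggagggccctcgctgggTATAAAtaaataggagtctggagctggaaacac
TATAAA, searched on both strands, occurs in 12.9% of 33469 rat promoter windows of this length. Of the 105 genes named here, 79 had such a window.

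Of the B cell genes, Pax5, Cd79b, Pou2af1 and Bank1 rose, 0 fell and 11 did not pass, with a median of 0.83. The share of all probe sets that rose was 6.96%. Cd79b, a signalling chain of the B cell receptor, read 3.08, 2.47, 2.38, 3.04 and 3.12 in the controls and 3.82, 6.90, 3.93, 6.64 and 3.50 at 8 weeks. Replicates 2 and 4 lay far above every control, and the other 8-week animals only slightly above them. Cd79b rose (log2 fold change 2.14, standard error 0.52, 95% confidence interval 1.06 to 3.21, adjusted p = 0.0109). Its control mean of 2.82 was near the background mean of 2.70, and replicates 1, 3 and 5 lay little above the 8-week background mean of 3.26. Pax5, the transcription factor that fixes B cell identity, read 4.76, 4.59, 4.53, 4.27 and 4.69 in the controls and 5.16, 6.26, 5.41, 6.16 and 5.11 at 8 weeks, without overlap. It rose (log2 fold change 1.05, standard error 0.20, 95% confidence interval 0.65 to 1.46, adjusted p = 0.00209), and its means at 1 and 4 weeks, 5.51 and 5.44, were also above the control mean of 4.57 (adjusted p = 0.00197 and 0.00636). Pou2af1, a coactivator needed for germinal centres, rose by 1.47 (adjusted p = 0.0155), but did not pass without 8-week replicate 2 (log2 fold change 1.25, adjusted p = 0.0525). Bank1, a B cell scaffold protein, rose by 1.33 (adjusted p = 0.0452), and did not pass without control replicates 1, 2, 3, 4 or 5 or 8-week replicates 2 or 4 (adjusted p up to 0.144). Its control mean of 3.04 was near background. At 8 weeks it read 5.86 and 5.94 in replicates 2 and 4, and 3.49, 3.49 and 3.04 in replicates 1, 3 and 5.

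Within the 8-week group the B cell signal was carried mainly by replicates 2 and 4. The mean over the 15 B cell genes was 4.68, 6.35, 4.91, 6.49 and 4.40 in 8-week replicates 1 to 5, and 4.32 to 4.70 in the controls. Cr2, the complement receptor of follicular dendritic cells and B cells, read 1.89, 6.57, 1.43, 5.62 and 1.51 at 8 weeks, against 1.30 to 1.97 in the controls, all under the background mean, and no more than 2.65 at 1 or 4 weeks. Cxcr5, the receptor for the Cxcl13 protein, read 3.09, 5.97, 4.10, 6.60 and 2.96, and Cd22, an inhibitory B cell receptor, 5.58, 7.52, 5.55, 7.20 and 5.81. In the controls Cxcr5 lay between 3.20 and 3.54 and Cd22 between 5.25 and 5.94. For all 3 genes replicates 2 and 4 were above every control and among the other 8-week animals only replicate 3, for Cxcr5, was above the controls. As group differences they did not pass (adjusted p = 0.0992 for Cr2, 0.114 for Cxcr5 and 0.087 for Cd22). Cr2 and Cd22 were picked after their values were seen, and Cr2 passed without 8-week replicate 3 or 5, Cxcr5 without 8-week replicate 1 or 5 and Cd22 without 8-week replicate 1 or 3 (lowest adjusted p = 0.0387, 0.0305 and 0.0444). The count of B cell genes that rose was 2 without 8-week replicate 2 and 6 without 8-week replicate 1, 3 or 5. Without control replicate 5, 1 B cell gene was lower. In bulk tissue, more B cells and more RNA of these genes per cell cannot be told apart.

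**Figure D2:**
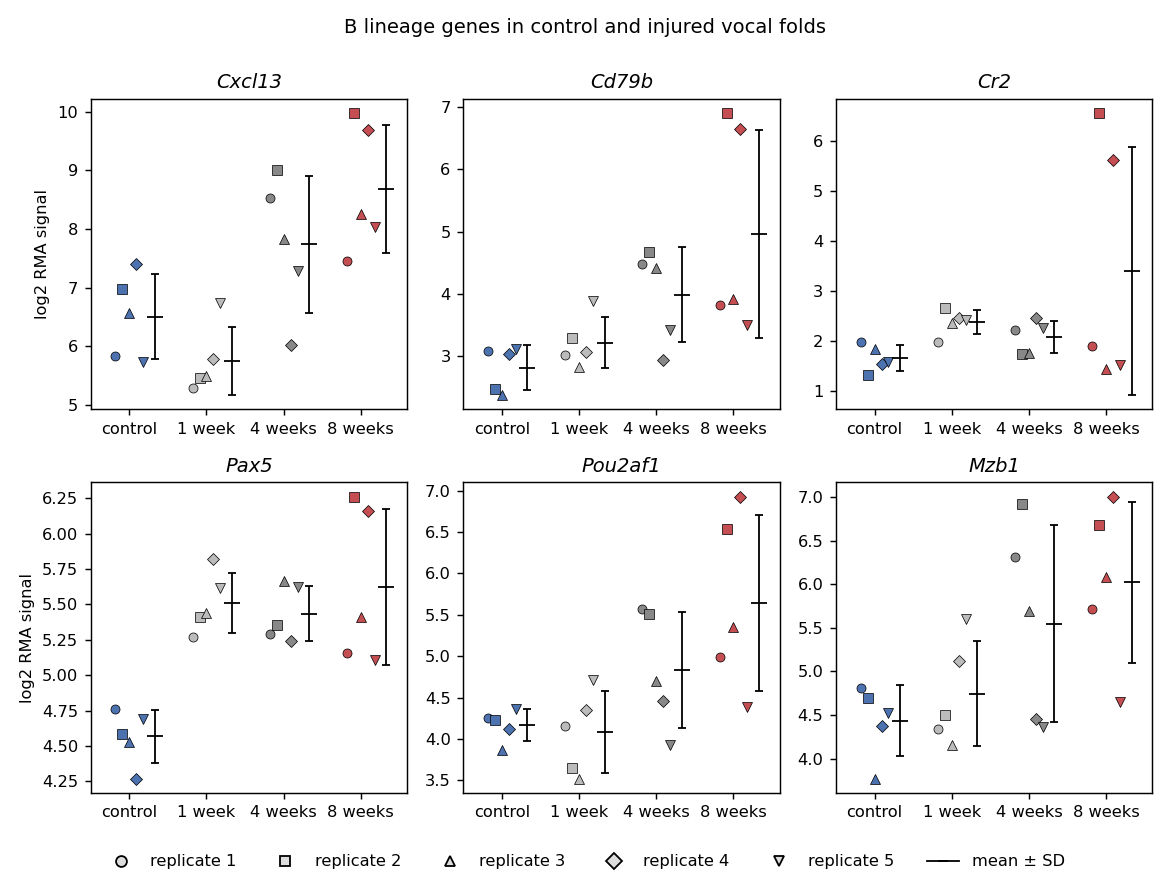
Log2 RMA signal (vertical axis) of 6 genes of the B lineage and its chemokine in control, 1-week, 4-week and 8-week animals (horizontal axis), with 1 symbol for each replicate number and black bars for mean ± SD (n = 5). In the 8-week group the squares and diamonds, replicates 2 and 4, stand above the other injured animals of that time in every panel.

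Some genes of plasma cells, the antibody-secreting descendants of B cells, also rose, with 4 of 10 higher, 0 lower and a median of 0.44. The mean over the 10 genes was 4.88 to 5.69 in the controls and 5.41 to 6.28 at 8 weeks, so the groups overlapped. Without control replicate 3, 1 member was lower. Prdm1, the factor that drives plasma cell differentiation, read 4.36, 4.49, 4.80, 4.59 and 4.70 in the controls and 5.60, 5.40, 5.71, 6.24 and 5.22 at 8 weeks, without overlap (log2 fold change 1.04, standard error 0.22, 95% confidence interval 0.58 to 1.51, adjusted p = 0.00534). Tnfrsf17, the plasma cell survival receptor BCMA, read 3.89, 4.09, 3.78, 3.57 and 4.02 in the controls and 4.97, 4.55, 4.82, 4.81 and 4.39 at 8 weeks, again without overlap (log2 fold change 0.84, standard error 0.20, 95% confidence interval 0.42 to 1.26, adjusted p = 0.0104). For Prdm1 and Tnfrsf17 all 5 injured animals were raised above the controls. Irf4, a transcription factor of plasma cells, rose by 1.23 (adjusted p = 0.0152), and Mzb1, a chaperone for immunoglobulin assembly, by 1.59 (adjusted p = 0.0239), with 8-week replicate 5 inside the control range for both. Mzb1 did not pass without 8-week replicate 2 or 4 (adjusted p up to 0.0688), which left 3 plasma cell genes higher.

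Of 17 lymphoid chemokine and follicle genes, Cxcl13 alone passed, with 0 lower and a median of 0.44. Ccl19, which guides T cells and dendritic cells to lymphoid tissue, read 4.91, 3.95, 3.91, 5.24 and 6.48 in the controls and 5.39, 8.30, 5.92, 7.58 and 5.88 at 8 weeks (1.72, adjusted p = 0.0532), and it passed without control replicate 5 or 8-week replicates 1 or 5. Without 8-week replicate 5 the count of this list was 4. Zc3h12d, an RNase-family regulator in lymphocytes, read 3.11, 3.30, 2.97, 3.61 and 4.17 in the controls and 4.49, 5.79, 4.84, 6.35 and 4.43 at 8 weeks, without overlap, and rose (log2 fold change 1.75, standard error 0.33, 95% confidence interval 1.06 to 2.44, adjusted p = 0.00238). The T and NK cell list had 0 of 26 members past the test and a median of 0.55. Lck, the T cell receptor kinase, read 3.43, 3.27, 3.28, 3.29 and 4.08 in the controls and 3.87, 4.96, 4.06, 4.75 and 3.86 at 8 weeks (0.83, adjusted p = 0.0666), overlapping through control replicate 5, without which it passed (adjusted p = 0.0346), and 3 members of the list passed in that fit.

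Some macrophage and complement genes rose. Of 21 macrophage genes, C1qa, C1qc, Cx3cr1 and Cd163 rose, 0 fell and the median was 0.50. C1qa, a chain of the complement trigger C1q made by tissue macrophages, read 6.73, 6.52, 6.37, 6.58 and 7.35 in the controls and 7.44, 8.01, 7.68, 8.11 and 7.62 at 8 weeks, with no overlap (log2 fold change 1.06, standard error 0.18, 95% confidence interval 0.69 to 1.43, adjusted p = 0.000923). Its means at 1 and 4 weeks, 7.58 and 7.70, were also above the control mean of 6.71 (adjusted p = 0.00181 and 0.0014). At 1 week 5 macrophage genes were called higher than control and 1 lower, beside 11.2% of all probe sets called higher. At 4 weeks 6 were higher and 0 lower, while 1952 of all 15049 probe sets were called in either direction. C1qc, a partner chain, rose by 0.97 at 8 weeks (adjusted p = 0.0142). Cx3cr1, the fractalkine receptor, rose by 0.75 (adjusted p = 0.0314), and Cd163, the haemoglobin scavenger receptor, by 0.98 (adjusted p = 0.0341). Cx3cr1 did not pass without control replicates 1, 2 or 3 or 8-week replicates 1, 2, 3 or 4 (adjusted p up to 0.0876), and Cd163 without control replicates 1, 2, 3 or 4 or 8-week replicates 2, 3, 4 or 5 (up to 0.0874). The count of rises was 2 without control replicate 1, 2 or 3 or 8-week replicate 2, 3 or 4. Without control replicate 3, 2 members were lower.

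Fcna, a ficolin that starts the lectin pathway of complement, read 5.61, 5.84, 5.79, 6.41 and 6.61 in the controls and 7.18, 7.63, 7.45, 7.69 and 7.42 at 8 weeks. Every 8-week animal exceeded every control (log2 fold change 1.42, standard error 0.19, 95% confidence interval 1.02 to 1.82, adjusted p = 0.000177). The means of Fcna at 1 and 4 weeks were 7.48 and 7.41, near its 8-week mean of 7.47. In the complement list 3 of 15 members rose and 1 fell, with a median of 0.26. C4b, the complement component cleaved by both the classical and lectin pathways, read 6.81, 6.66, 6.89, 7.52 and 6.91 in the controls and 8.04, 8.71, 8.28, 8.62 and 8.14 at 8 weeks, and rose (log2 fold change 1.40, standard error 0.17, 95% confidence interval 1.04 to 1.76, adjusted p = 8.6e-05). Cfd, the protease adipsin of the alternative pathway, read 5.20, 5.60, 5.30, 5.75 and 5.58 in the controls and 6.45, 6.62, 7.17, 7.23 and 6.69 at 8 weeks, and rose (log2 fold change 1.34, standard error 0.21, 95% confidence interval 0.92 to 1.77, adjusted p = 0.000456). Neither gene overlapped between the groups. C6, part of the membrane attack complex, rose by 1.22 (adjusted p = 0.0248), but did not pass without control replicates 1 or 2 or 8-week replicates 2 or 4 (adjusted p up to 0.0764). Cd55, which disarms complement on cell surfaces, fell by 1.12 (adjusted p = 0.0149). Without control replicate 3, 4 complement genes were lower.

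All 11 MHC class II presentation genes had positive log2 fold changes (median 0.76), and 3 passed. RT1-Bb, a class II beta chain, read 5.27, 5.18, 5.57, 5.16 and 5.55 in the controls and 6.42, 6.43, 6.30, 7.0 and 5.96 at 8 weeks, without overlap (log2 fold change 1.08, standard error 0.21, 95% confidence interval 0.64 to 1.52, adjusted p = 0.00279). RT1-Ba, the matching alpha chain, rose by 1.42 (adjusted p = 0.0126), and RT1-DOb, a modulator of peptide loading, by 0.76 (adjusted p = 0.024). RT1-DOb did not pass without control replicate 2 or 8-week replicates 2 or 4 (adjusted p up to 0.0721). Cd74, the invariant chain, read 9.66, 9.56, 9.32, 9.63 and 10.20 in the controls and 10.02, 10.99, 10.95, 10.72 and 9.81 at 8 weeks (0.83, adjusted p = 0.0572), and it passed without control replicate 5 or 8-week replicates 1 or 5. Without 8-week replicate 5 the list had 7 higher members. The 8-week animals with the lowest mean over the 11 genes were replicates 5 (6.28) and 1 (6.56), and the controls lay between 5.99 and 6.66.

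Of 26 interferon-stimulated genes 4 rose and 1 fell (median 0.20), and those that rose were mainly antigen-processing genes. Psmb9 and Psmb8, catalytic subunits of the immunoproteasome, rose by 1.31 (adjusted p = 0.0169) and 1.02 (adjusted p = 0.0243). Tap1, a subunit of the peptide transporter into the endoplasmic reticulum, rose by 0.92 (adjusted p = 0.0474). Bst2, the membrane tether of viruses also called tetherin, read 6.91, 6.82, 6.47, 6.70 and 7.11 in the controls and 7.41, 8.05, 7.93, 8.02 and 7.42 at 8 weeks, without overlap (log2 fold change 0.96, standard error 0.23, 95% confidence interval 0.48 to 1.45, adjusted p = 0.0111). Ifit1, an antiviral RNA-binding protein, went the other way, reading 5.36, 4.40, 4.84, 5.09 and 4.82 in the controls and 3.29, 3.23, 3.17, 4.20 and 3.47 at 8 weeks, without overlap (log2 fold change -1.43, standard error 0.41, 95% confidence interval -2.28 to -0.58, adjusted p = 0.027), with 8-week replicates 2 and 3 below the background mean of 3.26. Calls were lost for Psmb9 without 8-week replicate 2, for Psmb8 without control replicate 1 or 8-week replicates 2, 3 or 4, for Tap1 without control replicates 1, 2, 3 or 4 or 8-week replicates 1, 2, 3, 4 or 5 and for Ifit1 without control replicates 1 or 4 or 8-week replicates 1, 2 or 3, with adjusted p up to 0.0522, 0.0779, 0.116 and 0.0684. Without 8-week replicate 2, 1 gene of the list was higher and 0 lower. Tap1 was picked after its values were seen.

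The 250 bases before the starts of Tap1 (chr20:4668544-4668793, minus strand, GRCr8) and Bst2 (chr16:18254968-18255217, minus strand, GRCr8) are shown because they are the members of this list that rose and hold the motif, while Psmb8 and Psmb9, which also rose, have windows without it. Capitals mark the core of the interferon-stimulated response element, the letters TTTC, then any 2 bases, then TTTC, searched on both strands.
Tap1: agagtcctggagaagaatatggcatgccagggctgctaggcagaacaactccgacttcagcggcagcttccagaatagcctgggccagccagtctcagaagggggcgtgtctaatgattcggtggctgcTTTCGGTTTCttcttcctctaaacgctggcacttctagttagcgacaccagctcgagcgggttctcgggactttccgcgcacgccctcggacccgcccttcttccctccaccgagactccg
Bst2: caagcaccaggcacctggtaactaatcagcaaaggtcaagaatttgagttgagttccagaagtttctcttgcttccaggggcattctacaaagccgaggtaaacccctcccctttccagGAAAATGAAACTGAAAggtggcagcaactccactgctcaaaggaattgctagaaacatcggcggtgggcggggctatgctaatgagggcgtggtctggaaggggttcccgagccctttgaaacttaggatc
In Tap1 the motif lay at bases -121 to -112 from the start. In Bst2 matches that overlap each other, at -131 to -122 and -125 to -116, were on the opposite strand. The motif occurred in 3.41% of 33469 windows. Of the 26 interferon-stimulated genes measured, 20 had a window and 12 of these held it, among them genes that did not pass here.

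Some structural matrix genes were above control 8 weeks after injury, and several were below their level at 1 week. Of 16 fibrillar collagen and structural matrix genes 5 rose, 0 fell and the median was 0.40, while at 1 week 14 were higher than control with a median of 1.02. At 1 week 11.2% of all probe sets were called higher than control, and both values use the same controls. In the direct test of 8 weeks against 1 week, 5 of the 16 were lower and 0 higher (median -0.74). The difference in that test uses no control, and the controls enter only its estimate of spread. Over all probe sets that test called 35 (0.233%), with 30 lower at 8 weeks (0.199%) and 5 higher (0.0332%).

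Eln, the gene of elastin, read 6.85, 7.43, 7.23, 7.45 and 7.37 in the controls and 8.17, 7.93, 8.28, 8.31 and 8.30 at 8 weeks, without overlap. It rose (log2 fold change 0.93, standard error 0.20, 95% confidence interval 0.52 to 1.35, adjusted p = 0.00525), and from a 1-week mean of 9.61 ± 0.41 (SD, n = 5) it was lower at 8 weeks (log2 difference -1.42, adjusted p = 0.00144). Col5a1, a collagen V chain that nucleates collagen I fibrils, read 6.90, 6.81, 6.52, 6.91 and 6.89 in the controls and 7.57, 7.61, 7.48, 7.59 and 7.89 at 8 weeks, without overlap (log2 fold change 0.82, standard error 0.14, 95% confidence interval 0.54 to 1.11, adjusted p = 0.000883), and was lower than at 1 week (log2 difference -0.64, adjusted p = 0.0498). Col6a2, a chain of the pericellular collagen VI, rose by 0.90 (adjusted p = 0.00154), also without overlap. Emilin1, an elastic fibre glycoprotein, rose by 0.62 (adjusted p = 0.0229) and Col5a3 by 0.59 (adjusted p = 0.0393). Emilin1 did not pass without control replicate 1 or 8-week replicate 2 and Col5a3, picked after its values were seen, without control replicates 1, 2 or 5 or 8-week replicates 3, 4 or 5 (adjusted p up to 0.0661 and 0.102). Without control replicate 1, 3 members of the list were higher.

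The type I and III collagens were lower at 8 weeks than at 1 week, and neither passed against control. Col1a1, of type I collagen, averaged 8.54 ± 0.29 (SD, n = 5) in the controls, 10.34 ± 0.18 (SD, n = 5) in the 1-week and 9.10 ± 0.21 (SD, n = 5) in the 8-week animals. It did not pass against control (0.56, adjusted p = 0.0778, 95% confidence interval 0.14 to 0.98) and was lower than at 1 week (log2 difference -1.24, adjusted p = 0.0102). Col3a1, of type III collagen, gave values of the same kind (8 weeks minus control 0.48, adjusted p = 0.119, and 8 weeks minus 1 week -1.11, adjusted p = 0.0148). Cthrc1, a protein of activated fibroblasts, had the smallest adjusted p in that test. It was at 4.89 ± 0.26 (SD, n = 5) in the controls, at 8.03 ± 1.04 (SD, n = 5) in the 1-week animals and at 4.96 ± 0.30 (SD, n = 5) in the 8-week animals, a log2 difference from 1 week of -3.07 (adjusted p = 5.4e-05), with a 95% confidence interval against control of -0.61 to 0.75. Thbs2 and Postn, matricellular proteins of healing tissue, fell from 1 to 8 weeks (log2 differences -2.17, adjusted p = 0.00114, and -2.38, adjusted p = 0.00114). The 8-week values of Postn, 7.48, 7.30, 8.40, 7.82 and 6.63, overlapped those of the controls, 7.38, 7.44, 7.03, 8.04 and 6.97. Igf2, the fetal growth factor, was lower at 8 weeks than at 1 week (log2 difference -1.86, adjusted p = 0.00157) and did not pass against control (-0.67, adjusted p = 0.106). Thbs2 and Igf2 passed against control without control replicate 3 (log2 fold change 0.89, adjusted p = 0.0411, and log2 fold change -0.84, adjusted p = 0.0416). Aspn, a small leucine-rich protein that binds TGF-beta, was the 1 of 17 matricellular genes to rise against control (0.95, adjusted p = 0.0244, not past the test without control replicates 1 or 3 or 8-week replicates 1 or 3), and it was lower than at 1 week (log2 difference -1.54, adjusted p = 0.0112). The median of the matricellular list was 0.15 at 8 weeks. Against control 2 members rose without control replicate 3 and 0 without 8-week replicate 1 or 3. In the test of 8 weeks against 1 week 6 of its members were lower. Maged2 and Pamr1 completed the 8 genes with the smallest adjusted p between 8 and 1 weeks (log2 differences -0.78, adjusted p = 0.0104, and -1.39, adjusted p = 0.0108), with the 8-week mean of Pamr1, 2.82, below background.

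Of 35 probe sets called between 8 weeks and 1 week, 5 were higher at 8 weeks, namely Cxcl13, Lgi2, Clu, Tox and Slc43a1. All but Cxcl13 were picked after their values were seen. Lgi2, a secreted leucine-rich repeat protein, averaged 5.42 ± 0.41 (SD, n = 5) in the 1-week and 6.75 ± 0.47 (SD, n = 5) in the 8-week animals (log2 difference 1.33, adjusted p = 0.0352), and it was also higher than control (1.11, adjusted p = 0.0101). Clu, the extracellular chaperone clusterin, averaged 10.39 ± 0.41 (SD, n = 5) in the controls, 9.11 ± 0.15 (SD, n = 5) in the 1-week and 10.01 ± 0.34 (SD, n = 5) in the 8-week animals (8 weeks minus 1 week 0.90, adjusted p = 0.0317). Tox, a transcription factor of lymphocyte development, and Slc43a1, an amino acid transporter, were higher than at 1 week by 0.79 (adjusted p = 0.0276), and 0.77 (adjusted p = 0.0498). Neither passed against control (0.12, adjusted p = 0.673, and 0.50, adjusted p = 0.0503), though Slc43a1 did without control replicate 5 (adjusted p = 0.0157). The means of Tox were 5.08 in the controls, 4.41 at 1 week and 5.20 at 8 weeks. The count of 35 was 6 without 8-week replicate 2, 11 without 1-week replicate 3, 12 without 1-week replicate 1, 18 without 1-week replicate 2, 19 without 8-week replicate 3 and 22 without 8-week replicate 4.

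Between 8 and 4 weeks limma called 0 probe sets, with 377 at an unadjusted p of 0.05. Of the 1048 probe sets higher and 700 lower at 8 weeks than in control, 771 and 533 were called in the same direction at 4 weeks, against the same controls. The call count between 8 and 4 weeks was also 0 without any 1 of the 10 arrays of these groups.

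Cartilage genes formed the list with the highest share called, 7 of 11 higher and 0 lower, with a median of 0.60. Col11a2, a chain of the cartilage collagen XI, read 5.79, 5.61, 5.64, 6.08 and 5.99 in the controls and 6.84, 6.81, 6.76, 6.55 and 6.87 at 8 weeks, without overlap (log2 fold change 0.94, standard error 0.15, 95% confidence interval 0.63 to 1.26, adjusted p = 0.000643). Col2a1, the main collagen of cartilage, read 5.61, 5.13, 5.27, 5.43 and 5.57 in the controls and 6.28, 5.98, 6.22, 6.42 and 6.44 at 8 weeks, also without overlap (log2 fold change 0.87, standard error 0.16, 95% confidence interval 0.53 to 1.21, adjusted p = 0.00226). Col9a2, a chain of the fibril-bound collagen IX, rose by 0.65 (adjusted p = 0.0127) and Cnmd, chondromodulin, by 1.57 (adjusted p = 0.0155). Cnmd overlapped, with 8-week replicate 3 at 5.25 below control replicates 1, 3 and 4. The mean over the 11 genes was 4.61 to 5.63 in the controls and 5.63 to 6.21 at 8 weeks, so that the highest control reached the lowest 8-week animal. Without control replicate 2, 4 members were higher. Laryngeal cartilage lies next to the vocal fold, and whether the amount taken with the fold differed between groups was not tested.

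**Figure D3:**
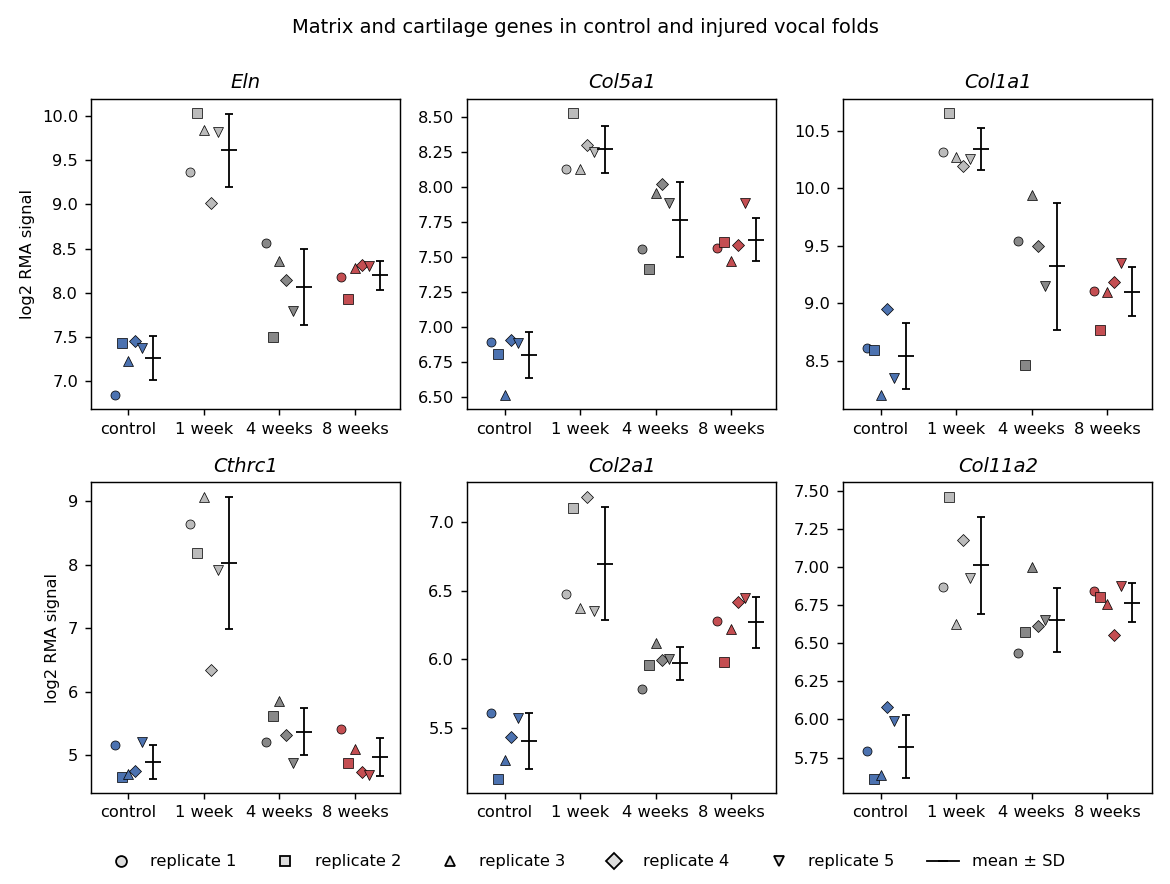
Log2 RMA signal (vertical axis) of matrix and cartilage genes in the 4 groups (horizontal axis), with 1 symbol for each replicate number and black bars for mean ± SD (n = 5). Cthrc1 and Col1a1 peak at 1 week, and the 8-week animals lie above all controls for Eln, Col5a1, Col2a1 and Col11a2.

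Among 28 matrix enzymes and inhibitors 5 rose and 1 fell (median 0.40). Adamts5, which cleaves aggrecan and versican, read 5.06, 5.10, 4.87, 5.80 and 5.73 in the controls and 5.88, 5.95, 5.87, 6.53 and 6.25 at 8 weeks, without overlap (log2 fold change 0.79, standard error 0.19, 95% confidence interval 0.39 to 1.18, adjusted p = 0.0111). Loxl1, a crosslinking enzyme of elastin, rose by 0.66 (adjusted p = 0.0137). Timp4, an inhibitor of metalloproteinases, was the one that fell, reading 6.45, 5.81, 5.08, 5.90 and 5.66 in the controls and 4.80, 4.83, 4.39, 4.04 and 5.07 at 8 weeks, without overlap (log2 fold change -1.15, standard error 0.25, 95% confidence interval -1.66 to -0.64, adjusted p = 0.0051). Without 8-week replicate 5, 2 members were higher. In TGF-beta and BMP signalling 3 of 25 rose and 1 fell (median 0.03), led by Nog, the BMP antagonist noggin (0.68, adjusted p = 0.00855). Without control replicate 3 this list had 4 lower, and without control replicate 1 or 8-week replicate 4 it had 1 higher.

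Among called probe sets, the 3 lowest log2 fold changes after that of Prl were in secretory genes of salivary and lingual glands. Of 15 salivary and lingual gland genes 6 fell, 0 rose and the median was -0.60, while 4.65% of all probe sets fell. Lipf, the gene of lingual lipase in the rat, read 12.28, 11.70, 11.62, 8.79 and 11.87 in the controls and 5.85, 4.49, 5.13, 8.79 and 4.32 at 8 weeks. The lowest control and the highest 8-week animal, replicate 4 in both groups, lay at about the same level. Lipf fell by 5.54 log2 units (95% confidence interval -7.76 to -3.31, adjusted p = 0.00257), with a mean of 8.08 ± 1.95 (SD, n = 5) in the 1-week and 6.94 ± 2.62 (SD, n = 5) in the 4-week animals. Bpifa2f, a salivary protein of the BPI fold family, read 11.04, 10.83, 5.12, 4.70 and 6.66 in the controls and 3.11, 2.81, 2.92, 3.03 and 3.24 at 8 weeks, without overlap (adjusted p = 0.00387). Control replicates 1 and 2 were far above the other controls, and the 8-week values were all below the background mean of 3.26, so the size of the fall is not settled.

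Csap1, a secreted protein of salivary glands, read 11.77, 11.49, 10.33, 8.97 and 11.46 in the controls and 6.84, 5.22, 7.86, 8.65 and 6.79 at 8 weeks, without overlap (log2 fold change -3.73, standard error 1.00, 95% confidence interval -5.81 to -1.65, adjusted p = 0.0192), and did not pass without 8-week replicate 2 (adjusted p = 0.059). Dmbt1, a mucosal scavenger protein, fell by 2.22 (adjusted p = 0.0127) and Egf, the growth factor that saliva carries, by 1.06 (adjusted p = 0.0123). Itln1, a goblet cell lectin, read 10.59, 10.59, 8.66, 9.96 and 8.41 in the controls and 5.06, 7.04, 8.02, 7.34 and 4.17 at 8 weeks, without overlap (log2 fold change -3.32, standard error 0.96, 95% confidence interval -5.32 to -1.32, adjusted p = 0.0286), and did not pass without control replicates 1, 2 or 4 or 8-week replicates 1 or 5 (adjusted p up to 0.0758). The mean over the 15 gland genes was 4.15 to 6.19 in the controls and 3.73 to 4.31 at 8 weeks, and in the controls it was lowest in replicates 4 (4.15) and 3 (4.69). The count of falls was 4 without control replicate 1 or 2 or 8-week replicate 2 or 3. The part of the amount of gland taken with the fold was not tested.

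**Figure D4:**
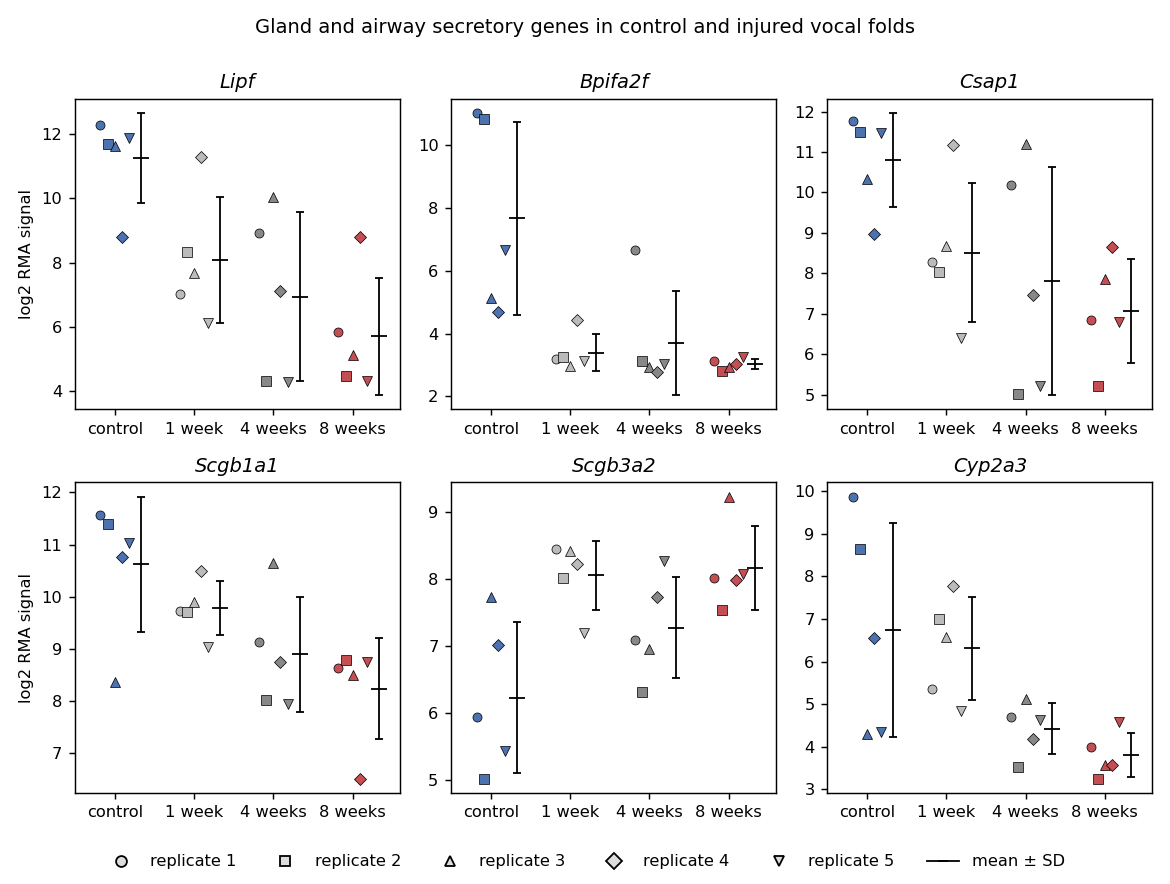
Log2 RMA signal (vertical axis) of gland and airway secretory genes in the 4 groups (horizontal axis), with 1 symbol for each replicate number and black bars for mean ± SD (n = 5). Lipf, Bpifa2f, Csap1, Scgb1a1 and Cyp2a3 are lower at 8 weeks than in most controls, and Scgb3a2 is higher.

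Secretoglobins of the airway moved in opposite directions. Scgb1a1, the club cell secretory protein, read 11.56, 11.39, 8.37, 10.77 and 11.02 in the controls and 8.64, 8.79, 8.50, 6.51 and 8.75 at 8 weeks. It fell (log2 fold change -2.38, standard error 0.55, 95% confidence interval -3.52 to -1.24, adjusted p = 0.00806), with control replicate 3 below most of the 8-week animals. Without that control the fall was larger (log2 fold change -2.95, adjusted p = 0.000528). Scgb3a2, a secretoglobin of the same airway cells, read 5.93, 5.02, 7.73, 7.02 and 5.43 in the controls and 8.02, 7.54, 9.23, 7.98 and 8.07 at 8 weeks, with control replicate 3 the only control inside the 8-week range. It rose (log2 fold change 1.94, standard error 0.43, 95% confidence interval 1.04 to 2.84, adjusted p = 0.00657). Scgb3a1 read 12.70, 12.84, 10.97, 11.36 and 12.78 in the controls and 11.08, 10.28, 11.34, 8.40 and 10.28 at 8 weeks (-1.85, adjusted p = 0.0659). It passed without control replicate 3 (adjusted p = 0.0397), and was picked after its values were seen.

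Of 19 airway secretory genes 2 rose and 2 fell (median -0.34), and without control replicate 3, 1 rose and 4 fell. The count of falls was 1 without control replicate 1 or 2, and that of rises 1 without control replicate 2 or 8-week replicate 1 or 4. Cyp2a3, a cytochrome of nasal and airway epithelium, read 9.87, 8.65, 4.30, 6.55 and 4.36 in the controls and 4.01, 3.26, 3.57, 3.57 and 4.59 at 8 weeks (log2 fold change -2.95, standard error 0.78, 95% confidence interval -4.56 to -1.33, adjusted p = 0.0175), with control replicates 1 and 2 highest, and did not pass without either of them (adjusted p up to 0.0587). Reg3g, an antimicrobial lectin, read 3.28, 2.87, 2.48, 3.12 and 3.41 in the controls and 4.55, 4.04, 3.87, 4.17 and 3.91 at 8 weeks, without overlap (log2 fold change 1.08, standard error 0.31, 95% confidence interval 0.44 to 1.72, adjusted p = 0.0266), and did not pass without control replicates 2 or 3 or 8-week replicates 1 or 4 (adjusted p up to 0.0662). Its control mean of 3.03 was near background. Of 22 xenobiotic metabolism genes 3 fell, 0 rose and 21 had negative log2 fold changes (median -0.59). Cyp4b1, an airway cytochrome, fell from a control mean of 5.11 to 3.19, below the background mean of 3.26 (adjusted p = 0.0139), so the size of its fall is not settled. The count was 7 without control replicate 3 and 1 without control replicate 1 or 2. Among 18 ion and water transport genes, Aqp1, the water channel of vessels, read 7.78, 7.76, 7.68, 8.27 and 8.49 in the controls and 8.87, 8.77, 8.91, 9.0 and 8.94 at 8 weeks, without overlap, and rose (log2 fold change 0.90, standard error 0.15, 95% confidence interval 0.59 to 1.22, adjusted p = 0.000923). Ano1 and Clca1, which serve chloride secretion in glands and goblet cells, fell by 1.52 (adjusted p = 0.00508) and 2.18 (adjusted p = 0.016). Clca1 did not pass without control replicates 1 or 2 or 8-week replicate 4 (adjusted p up to 0.0553). The list's median was -0.47, and it had 5 lower members without control replicate 3 and 1 without control replicate 1 or 2 or 8-week replicate 4.

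Few muscle genes passed the test. Of 21 sarcomere genes 1 fell and 0 rose (median -0.49), while 4 fell without control replicate 3 and 0 without control replicate 4 or 8-week replicate 2 or 3. Actn3, the alpha-actinin of fast fibres, read 6.32, 6.28, 6.10, 8.32 and 6.54 in the controls and 5.51, 5.13, 4.49, 5.55 and 5.95 at 8 weeks, without overlap (log2 fold change -1.38, standard error 0.41, 95% confidence interval -2.23 to -0.53, adjusted p = 0.0314). It did not pass without control replicate 4 or 8-week replicates 2 or 3 (adjusted p up to 0.0937). Pvalb, the calcium buffer of fast fibres, read 8.96, 8.58, 7.88, 10.63 and 8.74 in the controls and 8.14, 7.64, 4.99, 7.80 and 8.81 at 8 weeks (-1.48, adjusted p = 0.0759), and 8-week replicate 3, the lowest for both genes, also had the lowest mean over the sarcomere genes, 6.46. Pvalb passed without control replicate 3 or 8-week replicate 5 (lowest adjusted p = 0.0357). Of 16 neuromuscular junction genes 3 fell, 0 rose and the median was -0.32. Rapsn, which clusters acetylcholine receptors, fell by 0.76 (adjusted p = 0.0205), Chrnb1, a receptor subunit, by 1.06 (adjusted p = 0.0314) and Ncam1, an adhesion molecule of nerve and muscle, by 0.99 (adjusted p = 0.0474). The count of falls was 8 without control replicate 3 and 0 without control replicate 5 or 8-week replicate 4. Calls were lost without control replicate 5 or 8-week replicates 2 or 4 for Rapsn, without control replicates 2, 4 or 5 or 8-week replicates 3 or 4 for Chrnb1 and without control replicates 1, 2, 4 or 5 or 8-week replicates 2, 3, 4 or 5 for Ncam1 (adjusted p up to 0.0563, 0.0917 and 0.118).

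Pituitary hormone genes were present in the controls and low at 8 weeks, as they were at 1 and 4 weeks. Prl, the gene of prolactin, read 12.38, 12.10, 10.79, 10.76 and 11.16 in the controls and 3.77, 3.21, 3.89, 2.95 and 3.63 at 8 weeks, and fell by 7.95 (95% confidence interval -8.56 to -7.34, adjusted p = 2.5e-14), with 8-week replicates 2 and 4 below the background mean of 3.26. In the anterior pituitary list 5 of 10 members fell, all 5 without overlap, and the median was -0.84. At 1 week 5 members were lower than control, and at 4 weeks 5, with Prl at means of 3.89 and 3.38. Of all 15049 probe sets, 3209 were called against control at 1 week and 1952 at 4 weeks, in either direction. Gh1, growth hormone, read 9.57, 7.51, 6.54, 5.74 and 6.04 in the controls and 4.15, 4.43, 4.22, 4.05 and 3.98 at 8 weeks (log2 fold change -2.91, standard error 0.44, 95% confidence interval -3.82 to -2.01, adjusted p = 0.000377). Cga, the alpha chain of glycoprotein hormones, fell by 1.26 (adjusted p = 0.0122). Scg2 and Chgb, secretory granule proteins, fell from control means of 4.82 and 4.56 to 2.36 and 2.94 (adjusted p = 0.00173 and 0.0169), below the background mean of 3.26, so the size of these falls is not settled. Chgb was picked after its values were seen, and did not pass without control replicate 2 (adjusted p = 0.0547). Gal, the neuropeptide galanin, read 7.77, 6.93, 5.07, 3.70 and 4.25 in the controls and 2.52, 2.43, 2.36, 2.04 and 2.60 at 8 weeks, without overlap (adjusted p = 0.000612). Its 8-week values were all below background, so the size of its fall is not settled either. Control replicates 1 and 2 were the highest for Prl, Gh1, Scg2, Cga, Chgb and Gal, as they were for Bpifa2f, Cyp2a3, Cyp4b1 and Clca1. The same held for Scgb1a1, Csap1, Dmbt1, Itln1 and Ano1. For Lipf, Scgb3a1 and Egf control replicate 5 was instead among the 2 highest. The mean over the 10 pituitary genes was 6.72, 5.71, 4.74, 4.72 and 4.86 in control replicates 1 to 5 and 3.42 to 3.85 at 8 weeks. The part of pituitary RNA in these differences was not tested.

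Further called genes came from other tissues and pathways. Nsg1, an endosomal protein known from neurons, read 6.15, 6.19, 6.11, 6.85 and 6.11 in the controls and 7.90, 7.67, 7.57, 8.11 and 7.78 at 8 weeks, without overlap (log2 fold change 1.52, standard error 0.23, 95% confidence interval 1.05 to 1.99, adjusted p = 0.000377). Il1r2, the decoy receptor that binds interleukin-1, read 3.19, 2.93, 3.37, 3.83 and 3.49 in the controls and 4.52, 4.16, 4.63, 5.19 and 5.17 at 8 weeks, without overlap (log2 fold change 1.37, standard error 0.25, 95% confidence interval 0.86 to 1.89, adjusted p = 0.00155). Haemoglobin genes Hbb and Hbbl1, near-identical copies whose probe sets may share signal, rose by 1.84 (adjusted p = 0.00254) and 1.75 (adjusted p = 0.00164). Hbb read 7.18, 6.83, 6.66, 5.89 and 7.61 in the controls and 9.15, 8.54, 9.42, 8.45 and 7.77 at 8 weeks, so every 8-week animal exceeded every control. Cldn5, the tight junction protein of endothelium, rose by 0.70 (adjusted p = 0.0109). Ppif, cyclophilin D of mitochondria, read 7.04, 7.59, 5.92, 8.10 and 7.12 in the controls and 5.90, 5.34, 5.10, 5.19 and 5.56 at 8 weeks, without overlap (log2 fold change -1.73, standard error 0.28, 95% confidence interval -2.32 to -1.14, adjusted p = 0.000751). Chst9, a sulfotransferase of glycoproteins, fell by 2.15 (adjusted p = 0.0111), without overlap.

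Shares called in either direction were 7.69% of cell cycle, 13.3% of circadian clock and 28.6% of immediate early genes, against 11.6% of all probe sets. Of 26 cell cycle genes 2 rose and 0 fell (median 0.28), near the 6.96% of all probe sets that rose. Without control replicate 3 or 8-week replicate 5, 4 were higher, and without control replicate 2 or 8-week replicate 4, 1 was. Birc5, survivin, which segregates chromosomes, read 4.97, 5.07, 5.55, 4.96 and 4.80 in the controls and 6.10, 6.37, 6.32, 6.25 and 6.06 at 8 weeks, without overlap (log2 fold change 1.15, standard error 0.17, 95% confidence interval 0.81 to 1.5, adjusted p = 0.00026). It also passed in the fit with that covariate, as Prl did (log2 fold change 1.62, adjusted p = 0.045). Ccnb2, a mitotic cyclin, rose by 0.95 (adjusted p = 0.0193) and did not pass without control replicate 2 or 8-week replicate 4 (adjusted p up to 0.064). Of 15 circadian clock genes 2 fell and 0 rose (median -0.34), with 4 lower without control replicate 3 and 1 without control replicate 1. Clock, the core activator, read 8.70, 8.92, 8.25, 8.80 and 8.38 in the controls and 7.77, 7.52, 7.82, 7.97 and 7.95 at 8 weeks, without overlap (log2 fold change -0.81, standard error 0.15, 95% confidence interval -1.12 to -0.49, adjusted p = 0.00225). Per3, a period repressor, fell by 1.20 (adjusted p = 0.0179), and did not pass without control replicate 1 (adjusted p = 0.0579). Hours of killing are not given in the sources used here. Among 21 immediate early genes 4 rose and 2 fell (median 0.15), with 6 higher without control replicate 5 and 2 without control replicate 1 or 2 or 8-week replicate 2 or 4. Jund, a subunit of the transcription factor AP-1, read 7.15, 7.22, 7.05, 7.40 and 7.29 in the controls and 7.96, 7.87, 8.03, 8.16 and 8.09 at 8 weeks, without overlap (log2 fold change 0.80, standard error 0.13, 95% confidence interval 0.54 to 1.06, adjusted p = 0.000551). Klf2, a flow-responsive factor of endothelium, rose by 0.74 (adjusted p = 0.0145), also without overlap, and Nr4a2, an orphan nuclear receptor, fell by 1.02 (adjusted p = 0.0132).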

How the data were processed

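RNA of 20 rat vocal folds, 5 in each of 4 groups, was measured on 1 Affymetrix array for each animal. The authors deposited log2 RMA signals, which the methods say were made in Transcriptome Analysis Console 4.0.1 with global scaling, while the labels name Affymetrix Expression Console. The methods describe Clariom S arrays and labelled cDNA, the labels Clariom D and cRNA. The deposited log2 values were used without further normalization, and RMA leaves low signals compressed, so that small values understate differences.

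Probe sets with 1 gene symbol in the platform annotation were kept. All 4 groups were fitted together with limma 3.58.1 in R 4.3.3 (lmFit, contrasts, eBayes), and p-values were adjusted over all 15049 probe sets by Benjamini-Hochberg at 0.05. The 1-, 4- and 8-week contrasts with control share the same 5 controls, and differences between times were tested directly. Single values were compared by an exact permutation test. The fit was tested on simulated data. Figures were drawn with matplotlib 3.10.9.

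Genes were named by rule: Cxcl13, Pax5, Lipf, Scgb1a1 and Prl, then the 12 largest rises and falls among called probe sets without overlap, up to 4 members of each of 38 lists by adjusted p, and the 8 genes with the smallest adjusted p between 8 weeks and 1 week. Not every gene the rule allows is described. Cr2, Cd22, Tap1, Scgb3a1, Col5a3, Col3a1, Chgb, Slc43a1, Tox, Lgi2 and Clu were chosen outside it after their values were seen. Members and lists were chosen with earlier results of these data known. Alternatives covered normalization, weights, spread model, covariate, filter, probe set choice, pairing and single arrays. Promoter sequences are RefSeq's, on GRCr8. Whether replicates came from separate litters or cages is not given in the sources used here, so p-values measure the spread between these animals.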

Additional observations from a re-analysis of the deposited data

Results flagged for a closer look

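Single animals stood apart from the other 4 of their group by Dixon's 95% criterion in 17 of 218 tested groups of values, 11 of them in the controls and 6 at 8 weeks. Chance marks about 1 in 20 groups. In the controls the genes were Lipf at 8.79 in control replicate 4, Scgb1a1 at 8.37 in control replicate 3, Lck at 4.08 in control replicate 5, C4b at 7.52 in control replicate 4, Psmb9 at 6.32 in control replicate 5, Col5a1 at 6.52 in control replicate 3, Thbs2 at 5.15 in control replicate 3, Actn3 at 8.32 in control replicate 4, Nsg1 at 6.85 in control replicate 4 and Ppargc1a at 5.68 in control replicate 3. At 8 weeks they were Scgb1a1 at 6.51 in 8-week replicate 4, Emilin1 at 4.62 in 8-week replicate 5, Rapsn at 4.70 in 8-week replicate 1, Cldn5 at 6.76 in 8-week replicate 3 and Slc43a1 at 6.55 in 8-week replicate 4. For Scgb1a1 the control animal reached the 8-week values, and 8-week replicate 4 lay below all the others. Of the whole-array values, the median signal of control replicate 3 was 4.58 and the hybridization control signal of 8-week replicate 5 was 10.38.

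The change from control differed between 8 weeks and 1 week by limma's test of the difference itself in 16 of the 105 named genes. On the log2 scale Cxcl13 (2.93), Slc43a1 (0.77), Tox (0.79), Lgi2 (1.33) and Clu (0.90) were higher at 8 weeks, and Col5a1 (-0.64), Eln (-1.42), Aspn (-1.54), Cthrc1 (-3.07), Thbs2 (-2.17), Postn (-2.38), Col1a1 (-1.24), Col3a1 (-1.11), Igf2 (-1.86), Maged2 (-0.78) and Pamr1 (-1.39) were lower. The set was partly named for this test, so the count of 16 is a description.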

How the results depend on the processing

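The count of 1748 probe sets that differed between 8 weeks and control depended on the processing. Array weights gave 3619 (2130 lower), a fit on control and 8 weeks alone 1110 (693 higher, 417 lower), and all probe sets other than controls 2898 (1827 higher, 1071 lower). A change of at least 1 log2 unit left 249 (89 higher, 160 lower). A one-way analysis of variance on control and 8 weeks alone, adjusted by Benjamini-Hochberg, gave 496 (379 higher, 117 lower), with 3496 at an unadjusted p of 0.05. The paper's own one-way analysis of Prl was reported over 4 groups. Quantile normalization gave 1086 lower probe sets and median centring 1191. The share of calls that were higher was 60.0% as reported, 44.6% after centring, 41.1% with array weights and 36.0% without control replicate 3. Leaving out 1 array at a time gave 1109 to 2356 calls, 692 to 1094 higher and 374 to 1508 lower. A covariate for hybridization control signal left 9, 1 higher and 8 lower. This signal did not overlap between the groups, so that its part and that of the group cannot be told apart. In that fit Cxcl13 (log2 fold change 3.15, adjusted p = 0.131), Pax5 (log2 fold change 1.07, adjusted p = 0.186), Lipf (log2 fold change -6.53, adjusted p = 0.148) and Scgb1a1 (log2 fold change -4.21, adjusted p = 0.0672) kept their direction and did not pass. Without 1 array at a time these 4 genes passed throughout, at 1.85 to 2.48, 0.89 to 1.18, -6.31 to -5.19 and -2.95 to -1.95, and the difference in hybridization control signal was 0.716 to 0.905. Direction changed for Cthrc1 (-0.040 to 0.150 over the fits without 1 array, lowest without 8-week replicate 1), Postn (-0.066 to 0.376, lowest without 8-week replicate 3) and Pamr1 (-0.000601 with array weights), none of which had passed, and the cause was not tested. Between 8 weeks and 1 week, quantile normalization gave 57 calls, and leaving out 1 array 6 to 41. Animals with the same replicate number in the control and 8-week groups did not deviate together (r = -0.07, -0.09, 0.32, 0.00 and 0.06), and only replicate 3 correlated best with its own number. With the replicate number as a block, 1502 probe sets differed between 8 weeks and control and 18 between 8 weeks and 1 week. Of the 87 named genes called, 85 passed with the block.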

Other observations

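Several other tissue lists held 1 or 2 called genes each. In the lists of this and the next paragraph 5.26% to 11.1% of members were called, no more than the 11.6% of all probe sets. Ppargc1a, the coactivator of mitochondrial biogenesis, was the 1 of 19 genes of fatty acid oxidation and fasting to fall, reading 7.23, 7.41, 5.68, 7.38 and 7.68 in the controls and 6.51, 5.87, 5.38, 5.54 and 6.24 at 8 weeks (-1.17, standard error 0.34, adjusted p = 0.0291). It did not pass without control replicates 1, 2, 4 or 5 or 8-week replicates 2, 3 or 4 (adjusted p up to 0.0746), while without control replicate 3, 5 genes of this list were lower. Among 18 endothelial genes, Cldn5 rose and Kdr, the main VEGF receptor, fell (-0.62, standard error 0.17, adjusted p = 0.0199), and Kdr did not pass without control replicate 4 or 8-week replicates 1 or 2 (adjusted p up to 0.055). Without 8-week replicate 1, 3 endothelial genes were higher. Cnp, an enzyme of myelinating Schwann cells, rose (0.69, standard error 0.16, adjusted p = 0.00935) as the 1 of 14 in its list, and passed in all 10 fits that left out 1 array. Its list had 2 higher and 1 lower without control replicate 3 or 8-week replicate 4.

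Cebpa, a transcription factor of adipocytes and myeloid cells, read 4.85, 4.20, 4.40, 4.36 and 4.49 in the controls and 5.08, 5.11, 4.97, 5.05 and 4.81 at 8 weeks, and rose (0.54, standard error 0.14, adjusted p = 0.0126) in each such fit, the 1 of 14 in its list. Mylk, the kinase that drives smooth muscle contraction, was the 1 of 12 smooth muscle genes to rise (0.52, standard error 0.14, adjusted p = 0.0232). The smooth muscle list had a negative median of -0.26, and Mylk did not pass without control replicate 4 or 8-week replicate 5 (adjusted p up to 0.0579). Lum, a small proteoglycan that spaces collagen fibrils, was the 1 of 17 proteoglycan and hyaluronan genes to rise (0.66, standard error 0.21, adjusted p = 0.0471), but did not pass without control replicates 1, 2, 3 or 5 or 8-week replicates 1, 2, 3 or 4 (adjusted p up to 0.12).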
